A study of Mus musculus with 2 samples.

Results

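The Bcl2 family was described here through 8 genes, Bcl2, Bcl2l1, Mcl1, Bak1, Bok, Bcl2l11, Bid and Bad, in single cells of the mouse yolk sac. They were a fixed list of symbols, all 8 of which were found among the 33456 genes counted in both libraries. The material was 1 wild-type (WT) library and 1 library with the genotype Baf155 CKO (CKO), both of the B6 strain, each pooled from E9.5 and E10.5 yolk sacs. Dead cells and cells with the erythroid surface antigen Ter119 had been sorted away in both libraries, so the erythroid cells below are those that passed a Ter119-negative gate. Baf155, encoded by Smarcc1, is a core subunit of the SWI/SNF (BAF) chromatin remodelling complex. No source used here gives the Cre driver, the deleted exons or the number of embryos per pool, and the labels speak of nuclei in one place and of live sorted cells in another. The days are mixed within each library, so a difference between the libraries cannot be told apart from a difference in their stage mixture or in library preparation. Each genotype is a single library, so genotypes are compared by value only and carry no p-value. The intervals below cover counting error only.

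The family sets whether a cell opens the outer membrane of its mitochondria and dies. Bcl2, Bcl2l1 (whose main product is Bcl-xL) and Mcl1 are pro-survival members that hold the other branches in check. Bak1 and, with Bax, the pore-forming effectors carry out the permeabilisation, and Bok is a related effector-like protein. Bcl2l11 (Bim), Bid and Bad are BH3-only members that sense stress, death-receptor signalling or loss of growth factor signals and then bind the pro-survival proteins or engage the effectors. In the blood lineage Bcl-xL is known for keeping maturing erythroid cells alive, and Mcl1 for supporting stem and early progenitor cells.

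The genes lie apart in the genome (GRCm38, coordinates from the GENCODE M21 annotation). Bcl2 (ENSMUSG00000057329) is at chr1:106538178-106714274 and Bok (ENSMUSG00000026278) at chr1:93685660-93695764. Bcl2l1 (ENSMUSG00000007659) is at chr2:152780668-152831728 and Bcl2l11 (ENSMUSG00000027381) at chr2:128126038-128162547. Mcl1 (ENSMUSG00000038612) is at chr3:95658788-95663176, Bid (ENSMUSG00000004446) at chr6:120891930-120916853, Bak1 (ENSMUSG00000057789) at chr17:27019810-27029009 and Bad (ENSMUSG00000024959) at chr19:6941861-6951899. All 8 are protein-coding. Genes on the opposite strand overlap 4 of them: Bcl2l13 overlaps Bid (578 WT and 812 CKO UMIs of Bcl2l13), Gpr137 overlaps Bad (72 and 118), Ggnbp1 overlaps Bak1 (58 and 85) and D630008O14Rik overlaps Bcl2 (0 and 1). No source used here says whether counting used the strand, so reads of such a pair cannot be told apart with certainty.

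All 7 annotated start regions of the 4 members that differed past 1.5-fold between the libraries in erythroid-like cells are printed so that their regulatory letters can be set beside the values. All 8 genes matched the RefSeq table by symbol. The windows are RefSeq stretches of 300 bases on GRCm38.p6, from 250 bases before to 50 after an annotated start, and are written 5′ to 3′ on the gene's own strand. Capitals mark matches, on either strand, to motifs known for GATA factors (AGATAA), FOXO factors (GTAAACA) or ETS factors (GGAAGT, which reads ACTTCC on the other strand). Their positions are chr2:152831679-152831978, chr2:152830668-152830967 and chr2:152828440-152828739 for the 3 Bcl2l1 starts (minus strand), chr3:95658471-95658770 for Mcl1 (plus), chr2:128125788-128126087 and chr2:128127325-128127624 for the 2 Bcl2l11 starts (plus) and chr17:27028578-27028877 for Bak1 (minus).
Bcl2l1 start 1: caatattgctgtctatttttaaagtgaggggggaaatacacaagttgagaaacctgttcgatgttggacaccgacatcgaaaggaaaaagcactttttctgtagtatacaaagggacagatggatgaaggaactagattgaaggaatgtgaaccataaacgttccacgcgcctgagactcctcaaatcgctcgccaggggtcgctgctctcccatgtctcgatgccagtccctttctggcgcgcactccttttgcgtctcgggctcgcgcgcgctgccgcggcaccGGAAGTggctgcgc
Bcl2l1 start 2: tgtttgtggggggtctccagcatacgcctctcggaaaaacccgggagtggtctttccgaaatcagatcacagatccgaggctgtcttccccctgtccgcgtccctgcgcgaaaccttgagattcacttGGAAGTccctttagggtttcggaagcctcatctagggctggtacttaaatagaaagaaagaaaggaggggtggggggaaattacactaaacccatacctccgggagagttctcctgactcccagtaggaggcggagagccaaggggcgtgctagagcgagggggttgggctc
Bcl2l1 start 3: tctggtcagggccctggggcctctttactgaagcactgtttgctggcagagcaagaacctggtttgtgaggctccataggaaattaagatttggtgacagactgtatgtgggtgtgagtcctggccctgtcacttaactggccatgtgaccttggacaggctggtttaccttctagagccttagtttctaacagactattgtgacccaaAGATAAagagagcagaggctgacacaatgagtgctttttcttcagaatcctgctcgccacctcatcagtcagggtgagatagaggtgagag
Mcl1: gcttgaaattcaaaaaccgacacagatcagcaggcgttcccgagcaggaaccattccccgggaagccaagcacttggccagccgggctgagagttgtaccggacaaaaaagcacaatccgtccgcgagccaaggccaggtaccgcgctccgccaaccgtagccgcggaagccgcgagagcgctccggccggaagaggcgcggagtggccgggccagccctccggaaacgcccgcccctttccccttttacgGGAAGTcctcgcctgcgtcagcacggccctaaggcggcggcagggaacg
Bcl2l11 start 1: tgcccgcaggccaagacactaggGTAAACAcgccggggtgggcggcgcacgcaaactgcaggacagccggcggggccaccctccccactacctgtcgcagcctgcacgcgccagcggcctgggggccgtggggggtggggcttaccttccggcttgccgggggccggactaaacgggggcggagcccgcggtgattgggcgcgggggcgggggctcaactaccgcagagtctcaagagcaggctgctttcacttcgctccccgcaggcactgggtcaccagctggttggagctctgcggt
Bcl2l11 start 2: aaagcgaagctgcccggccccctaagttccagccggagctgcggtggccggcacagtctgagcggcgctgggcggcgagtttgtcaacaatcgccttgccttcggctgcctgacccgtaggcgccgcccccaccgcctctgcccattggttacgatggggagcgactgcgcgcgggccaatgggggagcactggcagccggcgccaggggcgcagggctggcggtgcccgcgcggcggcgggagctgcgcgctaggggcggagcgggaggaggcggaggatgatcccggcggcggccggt
Bak1: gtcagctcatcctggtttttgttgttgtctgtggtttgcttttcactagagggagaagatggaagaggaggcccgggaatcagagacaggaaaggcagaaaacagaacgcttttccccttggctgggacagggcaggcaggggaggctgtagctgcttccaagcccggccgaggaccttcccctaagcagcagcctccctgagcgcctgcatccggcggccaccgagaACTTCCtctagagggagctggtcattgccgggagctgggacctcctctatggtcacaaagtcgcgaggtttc
The first and second Bcl2l1 windows, the Mcl1 window and the Bak1 window each hold 1 ETS match, which 23.8% of 32851 RefSeq start windows also hold. The third Bcl2l1 window holds a GATA match, present in 11.2% of windows, and the first Bcl2l11 window holds a FOXO match, present in 3.65%. The second Bcl2l11 window holds none of the motifs searched. None of the 7 windows holds TTCNNNGAA, the core of the STAT motif found in 8.30% of windows, or TGACGTCA, the CRE motif found in 1.79%. A match is a description of the letters only.

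Before filtering the WT library held 815 cell barcodes with 24538853 UMIs and the CKO library 865 with 27314411; the range per barcode was 6054 to 114332 and 6328 to 96471 UMIs. After removal of cells over 10% mitochondrial UMIs (28 and 18) and of called doublets (3 and 6), 784 WT and 841 CKO cells were kept. The libraries shared 1 barcode sequence. Smarcc1 stood at 94.9 CPM, UMIs of the gene scaled to 1e6 UMIs, in the WT and 24.0 in the CKO library, so the targeted transcript was lower in the library labelled CKO but not at 0. Cells were gated by marker genes into classes called here X-like, and 51 WT and 41 CKO cells fell in none. The 5 classes with at least 20 cells in both libraries were erythroid-like (154 WT and 252 CKO cells), myeloid-primed progenitor-like (110 and 64), other progenitor-like (62 and 89), endothelium-like (50 and 41) and stroma-like (247 and 283). Erythroid-primed (30 and 1), macrophage (45 and 14) and endoderm cells (29 and 3) were compared only within the WT library and megakaryocyte cells (6 and 53) only within the CKO library. Erythroid haemoglobin RNA free in the droplets was small. Hbb-y in the non-erythroid classes compared between the libraries stood at no more than 0.165% of its erythroid level in WT and 1.07% in CKO. RNA carried at that share would add at most 0.233 CPM to any member there. CKO megakaryocyte cells, not among those classes, held more Hbb-y, 1537 CPM against 1207 in CKO endothelium-like cells.

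Levels are given as CPM, with the UMIs behind them. A gene was counted as measured in a comparison when the UMIs of WT and CKO came to 20 or more, and a difference was called at 1.5-fold or more. Between classes, 20 UMIs were needed over the pair of classes in each library, and the call had to be the same in both. Each UMI stands for 1 captured molecule, and a sum over a class can be high through many cells or a few. In pooled cells of a class, a shift in the mix of cells and a change in RNA per cell cannot be told apart.

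Among the pro-survival members, Bcl2 was highest in endothelium-like and stroma-like cells of both libraries. It stood at 40.0 CPM in WT (33 UMIs, 95% interval 27.6 to 56.2) and 17.6 in CKO endothelium-like cells (21 UMIs, 10.9 to 26.9), and at 15.6 (89 UMIs) and 10.2 (71 UMIs) in stroma-like cells. The endothelium over stroma ratio was 2.57 in WT (1.67 to 3.88) and 1.72 in CKO (1.00 to 2.83). In the blood-lineage classes it was lower. It was 6.68 CPM in WT erythroid-primed (9 UMIs), 3.81 in WT and 2.73 in CKO myeloid-primed (18 and 8 UMIs) and 2.72 in WT macrophage-like cells (4 UMIs). In the WT order, no step between neighbours from erythroid-primed down to macrophage-like cells went beyond its counting interval. The WT step from macrophage-like down to erythroid-like cells did (14.9 times, 1.47 to 734). In erythroid-like cells Bcl2 was 1 UMI in each library, and in WT endoderm-like cells 0 UMIs.

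Bcl2l1 spread more widely and had another order in each library. In WT the highest level was in endothelium-like cells, at 37.6 CPM (31 UMIs), 1.88 times the next class (1.15 to 3.05). Other progenitor-like (19.98 CPM), myeloid-primed (18.9), endoderm-like (16.7), stroma-like (11.2) and erythroid-like cells (10.0) followed with no gap beyond counting error between neighbours. Erythroid-primed and macrophage-like cells held 6 UMIs each. In CKO, megakaryocyte-like cells were highest at 54.4 CPM (77 UMIs), followed by other progenitor-like cells at 40.8 (123 UMIs), and stroma-like cells were lowest at 10.96 (76 UMIs).

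Mcl1 was the broadest pro-survival member, measured in every class. WT levels were 133 CPM in macrophage-like, 112 in endothelium-like, 110 in other progenitor-like, 99.4 in myeloid-primed, 95.1 in endoderm-like, 83.9 in stroma-like and 72.7 in erythroid-primed cells, with no neighbours apart in that order. Erythroid-like cells came last at 39.4 CPM (216 UMIs), and the erythroid-primed cells stood 1.85 times higher (1.44 to 2.35). In CKO the same low end was 21.9 CPM (205 UMIs), below other progenitor-like cells by 3.14 times (2.57 to 3.83), while the other 5 classes compared in CKO lay between 68.6 and 81.3 CPM.

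**Figure D1:**
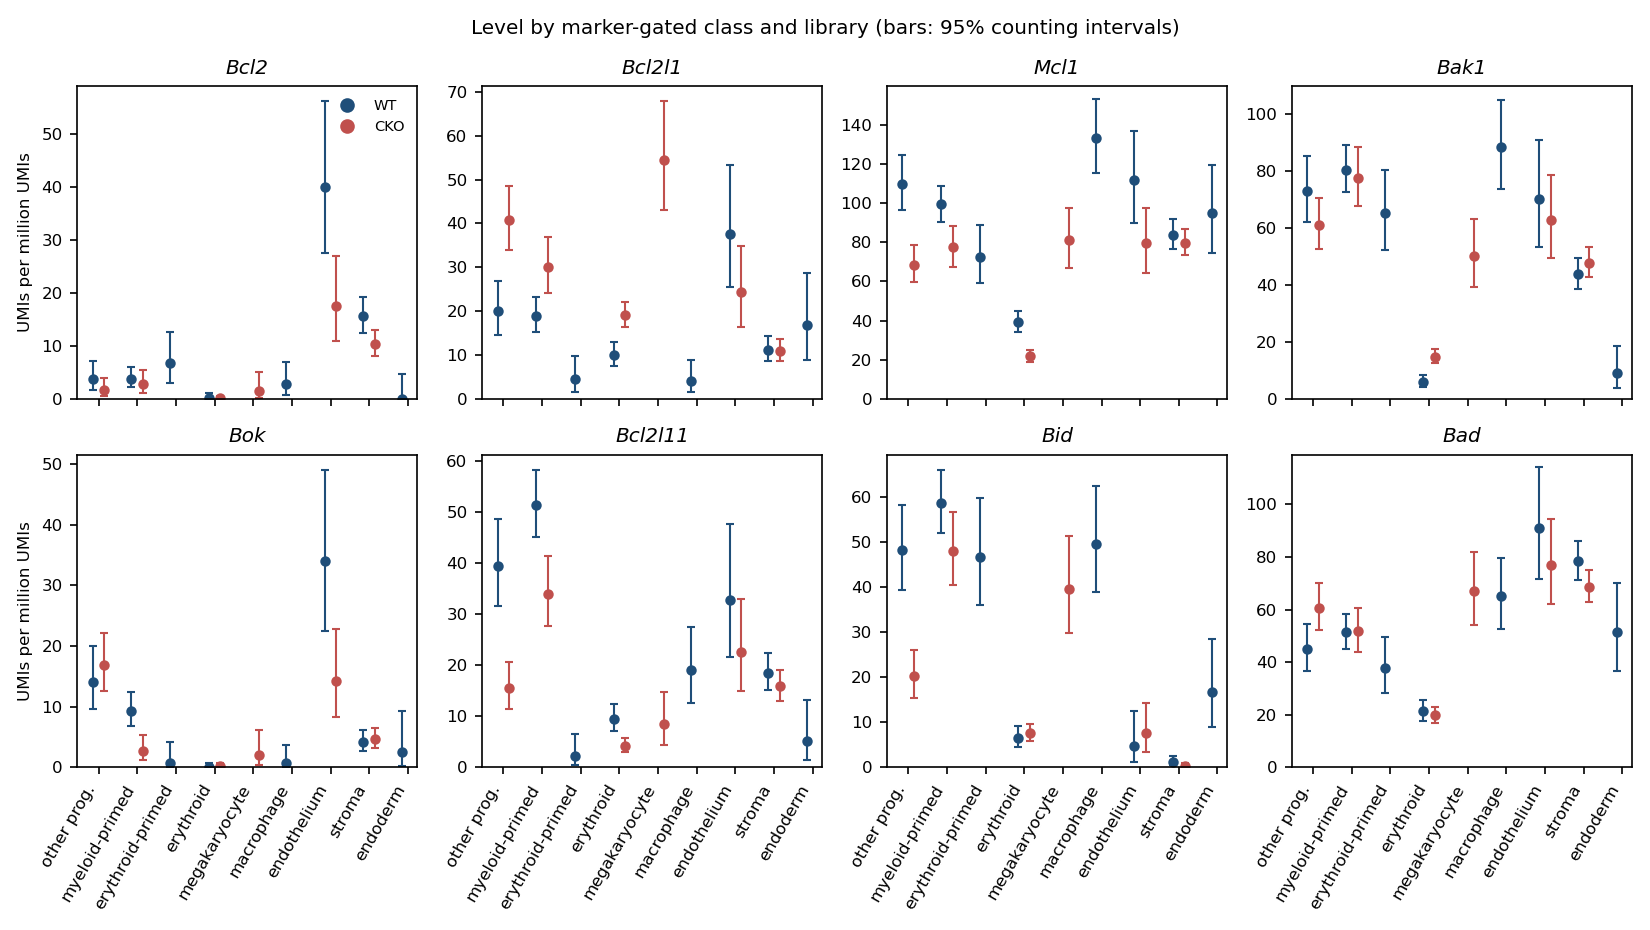
Level of each gene in CPM (linear vertical axes from 0) for the marker-gated classes with at least 20 cells, blue for WT and red for CKO, with points for class sums and bars for 95% counting intervals. Bcl2 and Bok in WT are highest in endothelium-like cells, at 40.0 and 34.0 CPM, and Bid is near 0 in stroma-like cells.

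Of the effectors, Bak1 was abundant in every class but erythroid-like and endoderm-like cells. WT levels lay between 65.3 and 88.3 CPM in 5 classes (macrophage-like highest) and were 43.7 in stroma-like cells, 8.997 in endoderm-like cells (7 UMIs) and 5.83 in erythroid-like cells (32 UMIs). Erythroid over myeloid-primed ratios were 0.0725 in WT and 0.191 in CKO.

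The members called between erythroid-like cells and the progenitor or endothelium classes were all lower in erythroid-like cells, where many other genes were lower too. Against myeloid-primed cells 6 of 6 measured members were lower, beside 53.1% of all genes lower and 5.51% higher. Against other progenitor-like cells 7 of 7 were lower, beside 51.0% lower and 5.19% higher. Against endothelium-like cells 5 of 7 were lower (Bcl2, Mcl1, Bcl2l11, Bak1 and Bad), beside 47.6% lower and 7.23% higher. The globin genes took a median 31.0% (WT) and 28.2% (CKO) of an erythroid-like cell's UMIs, and scaled without globin and mitochondrial UMIs Bak1 stood at 8.77 CPM in WT and 21.0 in CKO. Bid, at 6.56 CPM in WT and 7.57 in CKO erythroid-like cells, was above its stroma-like level in both libraries. The other members called for that pair of classes, Bcl2, Mcl1, Bcl2l11, Bak1, Bad and Bok, were lower in erythroid-like cells. The share of all genes for that pair is not reported here.

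Bok had a narrower range of cells than Bak1. It stood at 34.0 CPM in WT endothelium-like cells (28 UMIs), 2.41 times the next class (1.39 to 4.16), and 14.1 in WT other progenitor-like cells (31 UMIs). It was 9.32 in WT myeloid-primed cells (44 UMIs) and 4.20 in stroma-like cells (24 UMIs). Erythroid-like cells held 0 UMIs in WT, which allows up to 0.547 CPM at the limit of 3 UMIs (0.673 by the exact Poisson interval used elsewhere), and 2 in CKO. Compared with stroma-like cells, endothelium-like cells had higher Bcl2, Bcl2l1 and Bok in both libraries, 3 of 7 measured members beside 13.7% of all genes, and 0 lower beside 16.5%. In Xist-positive cells alone none of these 3 was called, and Bcl2l11 was the 1 member called higher. The Bok ratio was 8.09 in WT and 3.09 in CKO, and the Bcl2l1 ratio 3.36 and 2.22.

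Among the BH3-only members Bid was high in progenitor-like and macrophage-like cells and near 0 in stroma-like cells. WT myeloid-primed cells held 58.7 CPM (277 UMIs in 95 of 110 cells), macrophage-like cells 49.6, other progenitor-like cells 48.1 and erythroid-primed cells 46.7, without a gap beyond counting error. WT stroma-like cells held 1.22 CPM (7 UMIs, 0.492 to 2.52) and CKO stroma-like cells 2 UMIs. The myeloid-primed over stroma ratio was 47.9 in WT (23.0 to 120). After thinning every cell to 10000 UMIs, a Bid UMI was found in 37.5% of WT myeloid-primed and 0.885% of WT stroma-like cells (29.7% and 0.763% in CKO). Before thinning the shares were 86.4% and 2.83% in WT, with median depths of 46548.5 and 22588 UMIs. Thinning left out the 6 WT myeloid-primed and 21 WT stroma-like cells below that depth (0 and 21 in CKO). Bcl2l1, Bcl2l11, Bak1 and Bid were higher and Bcl2 lower in myeloid-primed than in stroma-like cells in both libraries, beside 19.5% of all genes higher and 27.8% lower. The Bcl2l11 and Bak1 calls ended in CKO cells with no Smarcc1 UMI and in Xist-positive cells alone. Against endothelium-like cells Bcl2l11 and Bid were higher and Bcl2 and Bok lower in myeloid-primed cells, beside 14.4% and 19.4% of all genes. The Bcl2l11 ratio was 1.57 in WT and 1.51 in CKO, where the interval of 0.976 to 2.40 held 1. Without the richest myeloid-primed cell of each library Bcl2l11 stood at 36.7 and 25.6 CPM, against 32.8 and 22.6 in endothelium-like cells. Those levels were within the fold. Other progenitor-like cells had Bid higher and Bcl2 lower than endothelium-like cells (10.1% and 16.2% of all genes). Between the 2 progenitor classes 1 of 7 measured members differed, Bok, lower in myeloid-primed cells (3.31% of all genes lower, 1.47% higher). The WT ratio was 0.662 with an interval of 0.409 to 1.08. The direction was the opposite in CKO Xist-positive cells (3.49 against 1.496 CPM) and in WT Y-positive cells (11.04 against 8.24).

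With all cells counted, Bcl2l11 was highest in myeloid-primed cells of both libraries, at 51.5 CPM in WT (243 UMIs) and 34.1 in CKO (100 UMIs). In CKO it was 22.6 in endothelium-like, 15.9 in stroma-like and 15.6 in other progenitor-like cells, and the step below myeloid-primed cells was within counting error (0.976 to 2.40). In WT it was 39.5 in other progenitor-like (87 UMIs), 32.8 in endothelium-like, 19.0 in macrophage-like and 18.5 in stroma-like cells, and erythroid-like cells were at 9.48. In erythroid-primed cells only 3 UMIs of Bcl2l11 were counted. The myeloid-primed value was uneven between cells: 1 cell held 73 of the 243 UMIs (30.0%), the next held 22, and only 45 of 110 cells held any. Bad, with the same 243 UMIs in those cells, was found in 91 of 110 cells with at most 8 in 1 cell. The richest cell was Y-positive, had 83997 UMIs and a doublet score of 0.00382, near the class median of 0.00419. In CKO the top cell held 27 of 100 UMIs. Without the richest cell of each library, Bcl2l11 in myeloid-primed cells was 36.7 CPM in WT and 25.6 in CKO. The WT value was then below the 39.5 CPM of other progenitor-like cells, which kept all their cells. In CKO, myeloid-primed cells held 11.6 CPM in the Xist-positive and 48.2 in the Y-positive set, against 22.1 and 25.9 in endothelium-like cells.

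Bad, which binds Bcl-xL and Bcl2, was measured in every class. WT levels ran from 91.0 CPM in endothelium-like cells (75 UMIs) and 78.5 in stroma-like cells (449 UMIs) through 51.5 in myeloid-primed cells to 21.5 in erythroid-like cells (118 UMIs), and myeloid-primed cells were below stroma-like cells by a ratio of 0.656 (0.559 to 0.768). Erythroid-like cells were below erythroid-primed cells, at 37.8 CPM, by 1.76 times (1.24 to 2.46). In CKO it was 77.1, 68.8, 51.8 and 19.8 CPM in the same 4 classes.

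The comparison of the CKO with the WT library within a class asked whether the loss of Baf155 goes along with other levels of these genes. Cells of a library were split by Xist and Y-linked transcripts into Xist-positive cells (352 WT, 390 CKO) and Y-positive cells (327 and 331), with 105 and 120 unclear. These sets are different animals, mixed with sex, and stand in for part of the spread between embryos.

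Erythroid-like cells had 4 of 6 measured members past 1.5-fold, 2 higher (Bcl2l1, Bak1) and 2 lower (Mcl1, Bcl2l11) in CKO. Of all 8792 genes measured, 31.1% were past the fold, 23.9% higher and 7.21% lower. Bcl2l1 was 10.0 CPM in WT (55 UMIs) and 19.1 in CKO (179 UMIs), a ratio of 1.90 (1.40 to 2.62). Mcl1 was 39.4 CPM in WT (216 UMIs) and 21.9 in CKO (205 UMIs), so it was 1.802-fold lower (ratio 0.555, 0.456 to 0.675). Bcl2l11 was 9.48 CPM (52 UMIs) against 4.16 (39 UMIs), 2.28-fold lower, and Bak1 5.83 (32 UMIs) against 14.8 (139 UMIs), 2.54-fold higher (1.72 to 3.86). In all 4, the Xist-positive and Y-positive cells of CKO both lay on one side of both WT sets. For Bcl2l1 the 4 sets were 10.45 and 9.94 CPM in WT and 19.3 and 18.4 in CKO. For Mcl1 they were 41.0 and 40.6 against 23.9 and 18.4, for Bcl2l11 10.1 and 9.94 against 5.13 and 1.796, and for Bak1 8.04 and 4.97 against 16.8 and 11.2. Over all genes 19.5% were higher and 6.41% lower with sets that did not overlap. The sets are parts of the same UMIs that gave the calls, and most genes past the fold had sets apart. These were 1712 of 2100 genes higher and 564 of 634 lower, so sets apart add little to a call. Bid (ratio 1.15, 0.762 to 1.77) and Bad (0.922, 0.728 to 1.17) did not pass the fold.

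The balance of UMIs between pro-survival genes differed with these levels. Bcl2l1 made up 20.3% (15.7 to 25.6) of Bcl2l1 and Mcl1 UMIs in WT erythroid-like cells and 46.6% (41.5 to 51.7) in CKO. In stroma-like cells it was 11.8% and 12.1%, and in endothelium-like cells 25.2% and 23.4%. Bak1 made up 3.15% of Bak1 and Bax UMIs in WT erythroid-like cells and 9.22% in CKO. These pairs were chosen after their values were seen and are given as a description.

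The class itself differed between the libraries. Median globin share was 31.0% in WT and 28.2% in CKO, Mki67, a proliferation marker, was 108 and 177 CPM, and the summed level of stroma markers was 23.9 and 80.4 CPM. The stroma-marker difference was not particular to this class. It was 29.0 and 95.4 CPM in myeloid-primed and 29.5 and 88.5 CPM in other progenitor-like cells, and its source was not tested. When cells were clustered without gates, WT erythroid-like cells were mostly in clusters that held fewer CKO cells, and the reverse. The erythroid cells were therefore also compared within equal ranges of globin share, below 25%, 25 to 30% and above 30% (18, 46 and 90 WT and 80, 76 and 96 CKO cells). The Bcl2l1 ratio was 2.11, 1.504 and 2.10 and the Bak1 ratio 2.05, 2.54 and 2.08. Mcl1 gave 0.487, 0.640 and 0.443, and Bcl2l11 0.195, 0.739 and 0.356. In the middle range the Bcl2l11 call was lost (0.333 to 1.70), and the Bcl2l1 interval (0.851 to 2.79) held 1. Below 25% globin WT held 5 UMIs each of Bcl2l1 and Bak1, and their intervals (0.859 to 6.72 and 0.832 to 6.52) also held 1. Mki67 was 1.504, 1.38 and 1.97 times higher in the same ranges, and its part in the result was not tested.

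**Figure D2:**
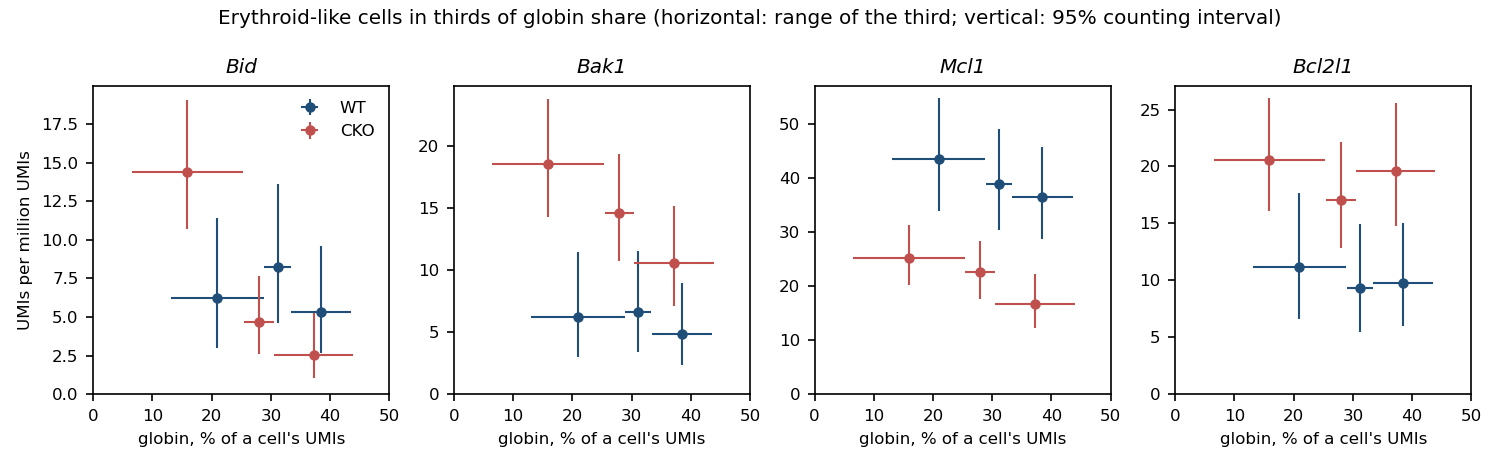
Level of 4 members (vertical, CPM) in erythroid-like cells split into 3 equal sets by globin share (horizontal, percent of a cell's UMIs), blue for WT and red for CKO, where horizontal bars span each set and vertical bars are 95% counting intervals. CKO Bid is 14.4 CPM in the lowest set and 2.54 in the highest.

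Each library's erythroid-like cells were also split into 3 equal sets by globin share, and in CKO some levels differed along them. Bid was 14.4, 4.64 and 2.54 CPM (49, 15 and 7 UMIs) from the lowest to the highest globin set, a ratio of 5.67 between the ends (2.56 to 14.8). Scaled without globin and mitochondrial UMIs, its highest set was at 0.217 of its lowest (0.0827 to 0.481). Bak1 was 18.5, 14.5 and 10.53 CPM and Mcl1 25.3, 22.6 and 16.7, ratios of 1.76 and 1.52 that were within 1.5-fold without globin and mitochondrial UMIs. Bcl2l1 (20.6, 17.0 and 19.6 CPM) stayed within 1.5-fold. In WT no measured member passed 1.5-fold between the end sets, with Bid at 6.22, 8.24 and 5.35 CPM, but Bcl2l11 and Bak1 did when the limits were set at 25% and 30% globin in both libraries. The lowest CKO set reached down to a globin share of 6.47%, whereas the lowest WT share was 13.1%.

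**Figure D3:**
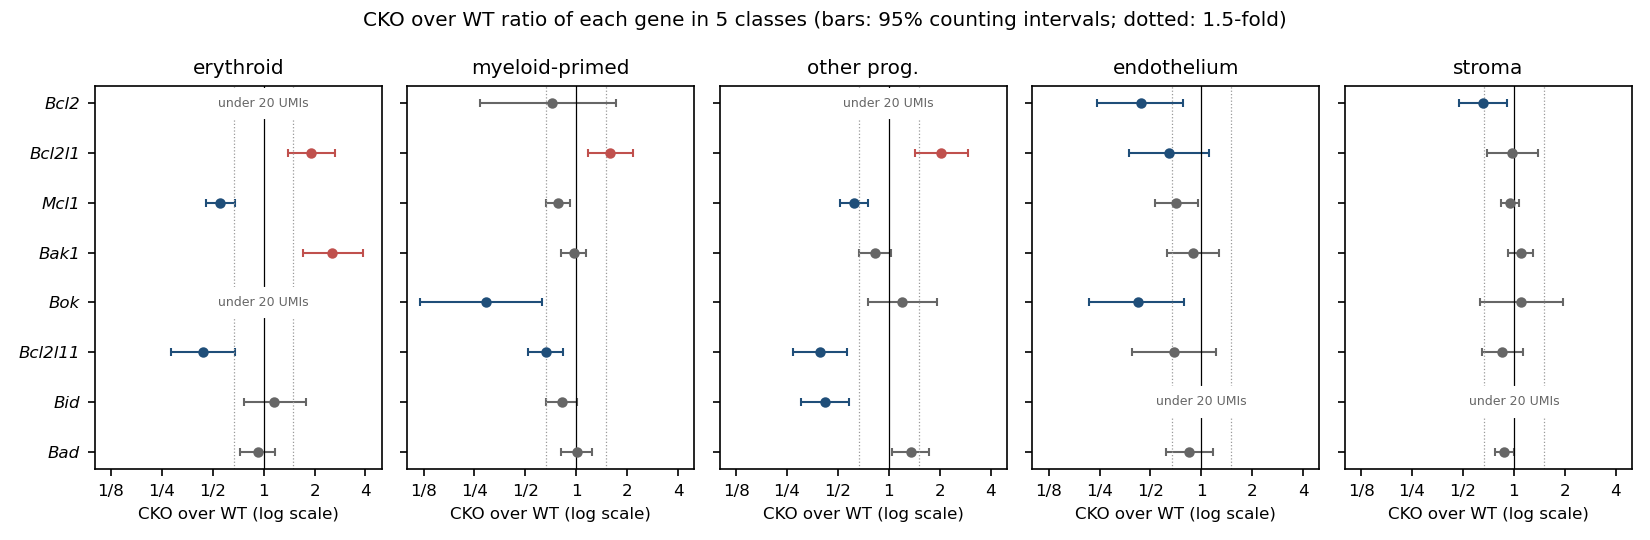
Ratio of CKO over WT level of each gene in 5 classes, on a log axis, with points for class sums, bars for 95% counting intervals and dotted lines at 1.5-fold. Red points are called higher and blue points lower; Bcl2l1 is above 1 in erythroid, myeloid-primed and other progenitor panels and at 0.980 in stroma.

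Myeloid-primed progenitor-like cells had 3 of 8 measured members past 1.5-fold, 1 higher (Bcl2l1) and 2 lower (Bcl2l11, Bok). Of 9395 genes 24.6% were past it, 14.6% higher and 9.92% lower. Bcl2l1 was 18.9 CPM in WT (89 UMIs) and 30.0 in CKO (88 UMIs), a ratio of 1.59 (1.17 to 2.16). Bcl2l11 was 51.5 against 34.1 CPM (0.662, 0.519 to 0.839), and 0.697 without the richest cell of each library, under the fold. Bok was 9.32 against 2.73 CPM (44 and 8 UMIs), 3.42-fold lower (0.292, 0.119 to 0.628). All 3 kept WT and CKO sets of embryos apart, beside 12.3% of genes higher and 8.09% lower that did so. Most genes past the fold did so too, 1155 of 1375 higher and 760 of 932 lower. For Bcl2l11, 73 of the 121 UMIs in the WT Y-positive set (55.7 CPM) were in 1 cell. The place of that set above the CKO Y-positive set (48.2 CPM) rested on that cell. The sets of CKO were not alike: Bcl2l11 was 11.6 CPM in Xist-positive and 48.2 in Y-positive cells, and Smarcc1 14.0 and 67.3 CPM in those cells. This class had the highest Smarcc1 left in CKO of the 5, at 49.1 CPM. Mcl1 (0.778), Bak1 (0.965), Bid (0.819), Bad (1.01) and Bcl2 (0.715, 18 and 8 UMIs) stayed within the fold. Bid was at 0.521 (0.335 to 0.781) in CKO cells with no Smarcc1 UMI and 0.627 in Xist-positive cells, past the fold. Markers of other cell types differed between the libraries in this class: the summed level was 29.0 CPM in WT and 95.4 in CKO for stroma markers, 211 and 380 for megakaryocyte, 268 and 379 for endothelium and 1035 and 753 for granulocyte-monocyte markers, and their part in the result was not tested. Nearly all cells stood at the gate's minimum of markers (105 of 110 WT, 63 of 64 CKO). When Leiden clusters took the place of gates, 0 members passed the fold here, with Bcl2l1 at 0.980 and Bcl2l11 at 0.872. Bok, at 14 WT and 0 CKO UMIs (interval up to 0.545), was lower there but under the 20-UMI minimum. Bcl2l11 was at 0.866 in Y-positive cells alone. Bcl2l1 was at 1.49 in Xist-positive cells alone (0.937 to 2.34), just under the fold.

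Other progenitor-like cells had 4 of 7 measured members past 1.5-fold, 1 higher and 3 lower, beside 33.8% of 9008 genes (19.7% higher, 14.1% lower). Bcl2l1 was 19.98 CPM in WT (44 UMIs) and 40.8 in CKO (123 UMIs), a ratio of 2.04 (1.43 to 2.95). Mcl1 was 110 against 68.6 CPM, 1.60-fold lower (0.624, 0.516 to 0.754). Bcl2l11 was 39.5 against 15.6 (0.394, 0.270 to 0.568) and Bid 48.1 against 20.2 (0.420, 0.301 to 0.581). For each of the 4 the CKO sets of embryos lay outside the WT sets, as 16.6% of genes did upward and 11.8% downward. Most genes past the fold did so too, 1493 of 1775 higher and 1061 of 1270 lower. Bid was 50.2 and 48.0 CPM in the 2 WT sets and 20.2 and 22.2 in the CKO sets. Bad was 45.0 against 60.6 CPM (1.35, 1.05 to 1.74), under the fold.

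These cells were not the same mixture in both libraries. The 10 endothelium markers summed to 409 CPM in WT and 782 in CKO, megakaryocyte markers to 325 and 929, and 1 cluster, of whose cells 60.6% were in this class, held 66 CKO and 0 WT cells. Restricted to cells with at most 4 endothelium markers, the same number of members, 4, passed the fold. Mcl1 was at 0.689 with a higher marker minimum and 0.720 in Xist-positive cells alone, under the fold. The part of the cell mixture in these values was not tested further.

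Bok in the same cells depended on the set of embryos. Its ratio over all cells was 1.20 (0.754 to 1.94), but the Xist-positive cells gave 17.2 CPM in WT (24 UMIs) and 1.496 in CKO (2 UMIs), and the Y-positive cells 8.24 (6 UMIs) and 40.0 (45 UMIs). The CKO Y-positive UMIs came largely from few cells, the 3 richest with 19, 12 and 4 UMIs. Smarcc1 was 8.23 CPM in Xist-positive and 15.1 in Y-positive CKO cells of this class, both far below 118 and 106 in the WT sets. With a higher marker minimum the ratio over all cells was 0.739. The sum over both sets does not stand for either.

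**Figure D4:**
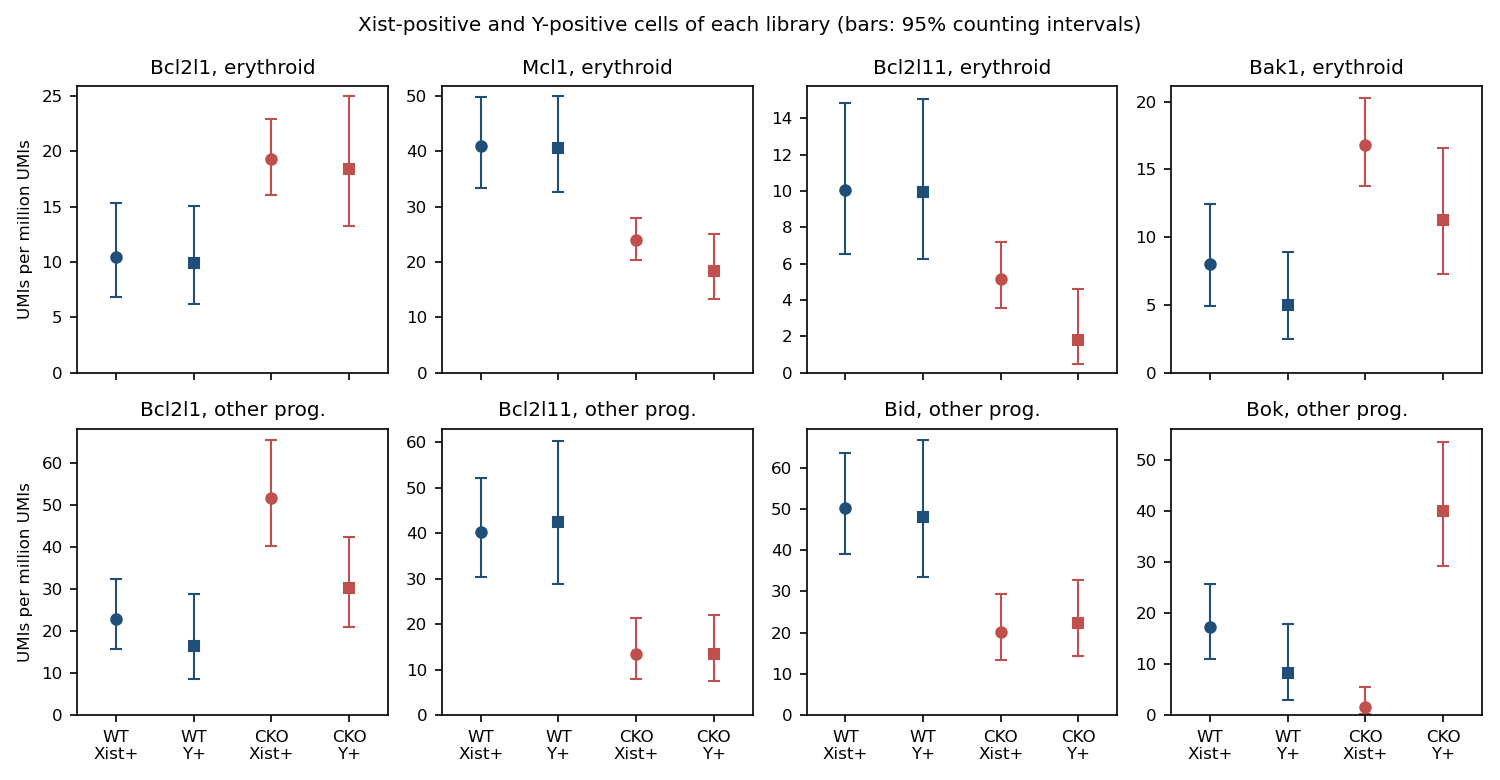
Levels in Xist-positive (circles) and Y-positive cells (squares) of WT (blue) and CKO (red), as CPM with 95% counting intervals, for 4 members in erythroid-like and 4 in other progenitor-like cells. Of the 8 panels 7 show members already called with sets apart, so their WT and CKO points do not overlap. Over all genes 19.5% were higher and 6.41% lower with sets apart in erythroid-like cells, and 16.6% and 11.8% in other progenitor-like cells. Some intervals overlap, as for Bak1 in WT Xist-positive (4.91 to 12.4) and CKO Y-positive erythroid-like cells (7.27 to 16.6). Bok in other progenitor-like cells is 1.496 CPM in Xist-positive and 40.0 in Y-positive CKO cells.

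Endothelium-like cells had 0 of 7 measured members higher and 3 lower (Bcl2, Bcl2l1, Bok), beside 11.8% of 7390 genes higher, 18.2% lower and 30.0% past the fold in all. Bcl2 was 40.0 against 17.6 CPM (0.440, 0.242 to 0.783) and Bok 34.0 against 14.2 (28 and 17 UMIs; 0.419, 0.215 to 0.793). Bcl2l1 was 37.6 against 24.3 CPM, and its interval of 0.376 to 1.11 held 1. For these 3 the embryo sets of the libraries overlapped, and 8.23% of genes higher and 13.4% lower had sets apart. The Bcl2l1 sets were 50.8 and 22.0 CPM in WT and 17.7 and 40.1 in CKO. Median depth was 13499 UMIs in WT and 28433 in CKO cells of this class. Mcl1 (0.713), Bcl2l11 (0.691), Bak1 (0.893) and Bad (0.847) were within the fold.

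Stroma-like cells had 0 of 7 measured members higher and 1 lower, Bcl2, at 15.6 CPM in WT and 10.2 in CKO (0.658, 0.475 to 0.909), beside 25.1% of 11133 genes (13.8% higher, 11.3% lower). Its embryo sets overlapped, at 12.2 and 18.3 CPM in WT and 14.98 and 7.28 in CKO. Genes with sets apart made up 11.5% and 9.99%. The other 6 measured ratios lay between 0.856 (Bcl2l11) and 1.10 (Bak1 and Bok), with Smarcc1 at 98.8 CPM in WT and 30.3 in CKO. The Bcl2 call ended, at 0.674 to 0.696, with a 5% mitochondrial limit, a higher marker minimum, Leiden clusters or CKO cells without Smarcc1 UMIs. The 2 clusters that held most WT stroma-like cells had 83 and 99 WT and 3 and 16 CKO cells, and the 2 that held most CKO cells had 10 and 1 WT and 105 and 116 CKO cells. Bok again split by set, with a ratio of 0.299 in Xist-positive and 2.45 in Y-positive cells.

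Of 16 further family members on a fixed list, 7 or 8 reached 20 UMIs in each class, and none of those was lower past 1.5-fold in any of the 5. In erythroid-like cells 4 of 8 were higher, with a median log2 ratio of 0.55 beside 0.19 over all genes. In myeloid-primed cells it was 3 of 8 (median 0.42 beside 0.01), in other progenitor-like cells 4 of 8 (1.06 beside 0.00), in endothelium-like cells 2 of 7 (0.09 beside -0.06) and in stroma-like cells 4 of 8 (0.47 beside -0.01). The 4 in other progenitor-like cells, and their median, include Bcl2a1b, with 0 WT and 20 CKO UMIs. It has no finite ratio, and its embryo sets overlapped. Genes with 0 WT UMIs were counted as higher over all genes too. Over all genes 23.9%, 14.6%, 19.7%, 11.8% and 13.8% were higher in these 5 classes, and 7.21%, 9.92%, 14.1%, 18.2% and 11.3% lower. With lower shares of that size, few lower genes among 7 or 8 would be expected in a class. The medians of the 8 genes themselves were 0.04, -0.32, -0.26, -0.52 and -0.07 in the same order.

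Bbc3 (Puma), a BH3-only member induced by p53, was 32.2 CPM in WT and 96.1 in CKO myeloid-primed cells (2.98), 34.5 and 122 in other progenitor-like cells (3.52), 14.6 and 52.0 in endothelium-like cells (3.57) and 2.45 and 10.96 in stroma-like cells (4.48). In erythroid-like cells it was 19.9 and 29.7 CPM, just under the fold. Pmaip1 (Noxa), a BH3-only partner of Mcl1, was 31.6 and 114 CPM in myeloid-primed (3.63) and 19.1 and 88.1 in other progenitor-like cells (4.62). Bax, the effector partner of Bak1, stayed within the fold in all 5, with ratios from 0.777 to 1.08. Bnip3, a mitophagy receptor, was 17.5 and 59.5 CPM in erythroid-like cells (3.40), 18.2 and 61.3 in other progenitor-like cells (3.37) and 37.8 and 100.1 in stroma-like cells (2.65). Its CKO embryo sets lay above the WT sets in erythroid-like and other progenitor-like cells but overlapped them in stroma-like cells. Bcl2l13, which overlaps Bid on the other strand, was 22.6 and 40.3 CPM in erythroid-like cells (1.78).

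Further along the pathway the calls were mixed. On the list of 25 caspase and mitochondrial-route genes, 6 of 22 measured were higher and 2 lower in erythroid-like cells, 2 and 1 of 24 in myeloid-primed, 3 and 3 of 24 in other progenitor-like, 3 and 2 of 21 in endothelium-like and 4 and 3 of 25 in stroma-like cells. Over all genes the shares were 23.9% higher and 7.21% lower in erythroid-like, 14.6% and 9.92% in myeloid-primed, 19.7% and 14.1% in other progenitor-like, 11.8% and 18.2% in endothelium-like and 13.8% and 11.3% in stroma-like cells, so most of these counts were near the background. The list medians were 0.30, -0.13, -0.01, -0.15 and -0.04. In erythroid-like cells Vdac1, a mitochondrial outer membrane channel, was 149 CPM in WT and 304 in CKO (2.04), Casp2, a caspase, had a ratio of 1.501, and Endog, a mitochondrial nuclease, and Htra2, a mitochondrial protease, had ratios of 0.456 and 0.620. In other progenitor-like cells Endog (0.530), Cycs, which encodes cytochrome c (669 and 419 CPM, 0.626), and Casp8 (0.627) were lower. In stroma-like cells Fas, a death receptor, was 6.47 and 25.5 CPM (3.95), Casp2 had a ratio of 1.65, and Casp8, the initiator caspase that cleaves Bid, Aifm1 and Fadd, an adaptor of death receptors, had ratios of 0.557, 0.611 and 0.666. In endothelium-like cells Xiap, a caspase inhibitor, was 77.7 and 37.7 CPM (0.486).

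On the list of 20 known regulators, 4 of 19 measured were higher and 2 lower in erythroid-like cells, 4 and 3 of 20 in myeloid-primed, 7 and 3 of 20 in other progenitor-like, 2 and 1 of 15 in endothelium-like and 5 and 1 of 19 in stroma-like cells. Most of these counts too were near the shares of all genes just given. The medians were 0.18, 0.10, 0.23, 0.15 and 0.11. Stat5b, which carries erythropoietin signals to Bcl2l1, had a ratio of 2.13 in erythroid-like cells, and Pim1, a survival kinase, was 111 and 221 CPM (1.98). Gata1 (108 and 137 CPM) and Epor, the erythropoietin receptor (113 and 168), were within the fold there. In myeloid-primed cells Foxo3 (1.72) and Usp9x (1.56) were higher and Gata1 was 19.7 and 5.11 CPM (0.259). In stroma-like cells Foxo4 (9.97 and 21.9 CPM), Stat3 (2.10) and Pim1 (2.09) were higher, and in endothelium-like cells Mdm2, which encodes the p53 ubiquitin ligase, was 21.8 and 68.7 CPM (3.15). Trp53 itself had ratios from 0.797 to 1.28. Foxo1, of the FOXO factors known to activate Bcl2l11, was 8.63 and 36.1 CPM in other progenitor-like cells (4.19), where Pim2 (1.70) and Foxo3 (1.56) were also higher and Bcl2l11 was lower. Usp9x, a deubiquitinase that stabilises Mcl1 protein, had a ratio of 2.04 in erythroid-like cells, where Mcl1 RNA was lower. Akt1, a kinase that inhibits Bad, was lower in all 5 classes, with ratios from 0.489 in stroma-like to 0.614 in myeloid-primed cells.

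The genes whose level over 14 class and library units was most like a member's were found by Pearson correlation of log2(CPM + 1), given as a description because units share libraries and depth. For Bcl2 these were Phactr2, Tpgs2 and Fstl1 (0.923 to 0.921), for Bcl2l1 Klhl24, Ogt and Trmt1l (0.867 to 0.848), and for Mcl1 Tor1a, Akt1 and Chmp4b (0.955 to 0.941). For Bak1 they were Lrrcc1, Cd44 and Ddx5 (0.976 to 0.972), and for Bok Ppp1r9a, Grasp and Il15 (0.926 to 0.910). For Bcl2l11 they were Wsb1, Cox4i2 and Zfp608 (0.866 to 0.845), for Bid Dera, Emc6 and Abhd11 (0.964 to 0.956), and for Bad Dusp23, Lrrc58 and Itgb1 (0.967 to 0.957).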

How the data were processed

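Single cells of 1 WT and 1 Baf155 CKO yolk sac pool were profiled by 10x Genomics 5′ sequencing. The deposited matrices hold whole-number UMI counts per gene and barcode, made by the authors with Cell Ranger on GRCm38, and Seurat is also named, per the submitters' processing notes; no source used here gives versions or strand settings. Depth was 24538853 (WT) and 27314411 (CKO) UMIs, and the precision is given by 95% exact intervals (Poisson for levels, binomial for shares, conditional binomial for ratios), which cover counting error only.

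From these counts, cells under 500 genes or over 10% mitochondrial UMIs were dropped, and doublets called by Scrublet (expected rate 1%) were removed. Cells were gated by markers at 2 UMIs or more: erythroid from 5% globin UMIs, endoderm from 4 markers, stroma from 5, macrophage from 4, megakaryocyte from 6, endothelium from 7 with neither Myb nor granulocyte-monocyte markers, erythroid-primed from 3, myeloid-primed from 2 and other progenitors from 2. UMIs were summed per class and library and scaled to CPM. A call needed 1.5-fold and 20 UMIs over both libraries. With 1 library per genotype no p-value was made. The members, lists and tests were chosen with earlier results of these data known. All 8 members are given; from the pathway and regulator lists, the 3 genes past 1.5-fold with the largest ratio each way and at least 100 UMIs, and regulators set beside a member, are named; the 3 genes most like each member come from genes of at least 20 CPM in 1 unit. Alternatives were a 5% mitochondrial limit, doublets kept, higher marker minimums (but the same 2 for myeloid-primed cells, so that gate was not tested), Leiden clusters in place of gates, CKO cells without Smarcc1 UMIs, scaling without globin and mitochondrial UMIs, thinning to 10000 UMIs, and Xist-positive or Y-positive cells alone; calls without the richest cell, and without progenitors of more than 4 endothelium markers, were added after seeing the data. The ratio and interval code was checked on simulated data. Scripts ran in Python 3.11.15 with scanpy 1.11.5, scipy 1.17.1 and numpy 2.4.6.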

Additional observations from a re-analysis of the deposited data

Results flagged for a closer look

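The CKO over WT ratio of Bcl2l1 stood above 1 in erythroid-like (1.90), myeloid-primed (1.59) and other progenitor-like cells (2.04) and below 1 in endothelium-like cells (0.646), past 1.5-fold in both directions. The difference between these classes was not tested, and the endothelium value rests on 31 and 29 UMIs. Its interval of 0.376 to 1.11 held 1, its embryo sets overlapped, and Y-positive cells alone gave 1.82. The myeloid-primed ratio was 0.980 when Leiden clusters took the place of gates. The Bad ratio was 1.35 in other progenitor-like and 0.876 in stroma-like cells, with counting intervals that lay on opposite sides of 1, and that difference was not tested.

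The Bok ratio went opposite ways in the 2 sets of embryos. It was 0.0869 in Xist-positive (0.00995 to 0.350) and 4.86 in Y-positive other progenitor-like cells (2.07 to 13.9), and 0.299 in Xist-positive (0.0844 to 0.879) and 2.45 in Y-positive stroma-like cells (1.09 to 6.01). The difference between the sets was not tested, and sex and embryo cannot be told apart in it.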

How the results depend on the processing

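The alternatives changed 1 choice at a time. The 4 erythroid-like calls (Bcl2l1, Mcl1, Bcl2l11, Bak1) kept their direction and their side of 1.5-fold in every alternative that gave a value, but within cells of 25 to 30% globin the Bcl2l11 ratio was 0.739. The cause of the differences below was not tested.

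Called ratios that turned were the Bcl2l1 ratio in myeloid-primed progenitors under Leiden clusters, 0.980, the Bcl2 ratio in stroma among Xist-positive cells, 1.23, and the Bcl2l1 ratio in endothelium among Y-positive cells, 1.82. Of uncalled ratios Bok, above 1 in the main setting, was 0.739 in other progenitors with a higher marker minimum and 0.0869 and 0.299 in Xist-positive other progenitor and stroma cells. Members past 1.5-fold in stroma were 0 with at most 5% mitochondrial UMIs, a higher marker minimum, Leiden clusters, CKO cells with no Smarcc1 UMI or Xist-positive cells, and 2 in Y-positive cells; in myeloid-primed progenitors they were 0 under Leiden clusters. Bok was past the fold in Xist-positive stroma (14 and 5 UMIs) and Leiden myeloid-primed cells (14 and 0 UMIs), under the 20-UMI minimum. Members past the fold in both libraries in myeloid-primed progenitors over stroma were 3 in CKO cells with no Smarcc1 UMI and 3 in Xist-positive cells (Bcl2l11 and Bak1 lost), and in endothelium over stroma 1 in Xist-positive cells (Bcl2l11 in place of Bcl2, Bcl2l1 and Bok). Genes of the other 3 lists past the fold were 6 (erythroid), 7 (myeloid-primed), 8 (other progenitor) and 7 (stroma) at 2-fold, against 18, 13, 20 and 17 in the main setting. With at least 1 UMI they were 20 in myeloid-primed progenitors and 18 in endothelium, and with at least 50 UMIs 5 in endothelium (main 10). Along globin share, fixed limits gave 2 members past the fold in WT (main 0), and leaving out globin and mitochondrial UMIs gave 1 in CKO (main 3).

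Among single genes, the Mcl1 ratio in other progenitors was 0.689 with a higher marker minimum and 0.720 in Xist-positive cells, and the Bcl2l11 ratio in myeloid-primed progenitors was 0.866 in Y-positive cells and 0.872 under Leiden clusters. The Bcl2l1 ratio in myeloid-primed progenitors was 1.49 in Xist-positive cells (0.937 to 2.34). Leiden clusters gave no WT other progenitors and so no ratio there. No paired analysis was possible because each genotype has 1 library and the labels give no replicate numbers.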

Other observations

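Over all kept cells, Bok was 6.81 CPM in Xist-positive and 5.38 in Y-positive WT cells, and 1.19 (16 UMIs) and 9.46 (97 UMIs) in the same sets of CKO. WT macrophage-like cells had the lowest share of Bcl2l1 among Bcl2l1 and Mcl1 UMIs, 2.97%, and CKO megakaryocyte-like cells one of 40.1%, against 46.6% in CKO erythroid-like cells. CKO megakaryocyte-like cells also held Bad at 67.1 CPM, Bak1 at 50.2 and Bid at 39.6, with Bcl2 at 2 UMIs and Bok at 3.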
